A study of Mus musculus with 12 samples.

Results

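The 28 genes described here code for the enzymes of cholesterol and fatty acid synthesis, for the factors that switch these enzymes on, and for a carrier of the finished sterol. They were chosen by name. The list holds 7 genes of the mevalonate arm (Hmgcs1, Mvk, Pmvk, Mvd, Idi1, Fdps and Acat2), 11 of the squalene and sterol arm (Fdft1, Sqle, Lss, Cyp51, Tm7sf2, Msmo1, Nsdhl, Hsd17b7, Ebp, Sc5d and Dhcr7), 6 of fatty acid synthesis (Acly, Acaca, Fasn, Scd1, Scd2 and Elovl6) and 4 of control and transport (Srebf1, Srebf2, Insig1 and Stard4). Each gene was represented by its probe with the highest mean signal. All 28 were among the 24183 genes and transcripts tested, and all 28 gave a signal well above background on every one of the 12 arrays, so none passed the filter through 1 group alone.

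Cholesterol is built from acetyl-CoA by way of mevalonate, farnesyl pyrophosphate, squalene and lanosterol, and fatty acids are built from the same acetyl-CoA, which Acly releases from citrate in the cytosol. The SREBP transcription factors, encoded by Srebf1 and Srebf2, are held in the membrane of the endoplasmic reticulum by INSIG proteins while sterols are plentiful, and are cut free to switch on these genes when sterols run low. Insig1 is itself a target of SREBP, and every dividing cell draws on the pathway for new membrane.

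RNA of 4 groups was hybridised to single-colour Agilent mouse arrays, with 3 arrays in each group. The cells were DKO172, a single female mouse line of fallopian tumor origin, given a hygromycin-selectable plasmid that expresses DICER1 D1709N, DICER1 G1809R, wild-type DICER1 (WT) or GFP as the control. They were collected 108 h after transfection, at the end of 84 h in hygromycin. The design asks what each construct changes and where a mutant departs from the wild type. The labels used here do not spell out the line's genotype. As background, the line comes from a mouse model in which Dicer1 was deleted, which all 4 groups would share. DICER1 cuts miRNA precursors, and both substitutions lie in the RNase IIIb domain, which releases the 5p strand.

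Slide 1 held the arrays of replicate 1 and slide 2 the rest, per the file headers. WT replicate 1 stood apart, with 82.7% of probes well above background and a correlation of 0.977 to 0.980 with the other WT arrays, against 0.981 to 0.993 between other arrays of 1 group. The labels do not say that replicates are separate cultures, and p-values measure a spread that may be technical. Of 9 Müllerian epithelial markers on the array, 6 were well above background on all 12 arrays (Krt7, Krt8, Krt18, Krt19, Ovgp1 and Wt1), and Pax8 and Foxj1 were so on 4. None of 6 hepatocyte markers and 2 of 8 adipocyte markers (Pparg and Lpl) reached it on all arrays. Of other cell types, 7 of 8 mesenchymal or stromal markers (all but Pdgfrb, among them Vim and Fn1), 3 of 6 leukocyte markers (Cd3e, Itgam and Csf1r, but not Ptprc) and 2 of 5 endothelial markers (Pecam1 and Kdr) reached it on all 12. The part of such cells in the results was not tested. Values of a group are given in the order of replicates 1, 2 and 3, and a level is the log2 signal relative to the array's 75th percentile. Levels of different probes are not compared. In a bulk sample, a change in the mix of cells and a change within each cell cannot be told apart.

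SREBPs act at promoters together with the factor NF-Y, which binds the letters CCAAT. The stretch from 250 bases before to 50 bases after the start was held by RefSeq (GRCm38.p6) for 22 of the 28 genes. CCAAT, read on both strands, was in such a stretch of 19 of the 22 (86.4%), against 41.1% of 27025 genes. The sterol element letters TCACNCCAC, read on both strands, were in 1 of 22 (4.55%), against 1.44% of genes, and that 1 was Hmgcs1. The motifs do not overlap in the stretches printed. A match is a description of the letters and no evidence of binding. A missing match means only that these exact letters, with any base at N, were not found in the stretch. The promoters of 4 of the genes whose levels differed most between the groups relative to their spread are printed in the direction of the gene, with the motif letters of either strand in capitals (ATTGG is CCAAT on the other strand). They lie at chr13:119690101-119690400 (Hmgcs1, plus strand), chr13:8885356-8885655 (Idi1, plus strand), chr5:4104648-4104947 (Cyp51, minus strand) and chr19:6067801-6068100 (Tm7sf2, minus strand).
Hmgcs1: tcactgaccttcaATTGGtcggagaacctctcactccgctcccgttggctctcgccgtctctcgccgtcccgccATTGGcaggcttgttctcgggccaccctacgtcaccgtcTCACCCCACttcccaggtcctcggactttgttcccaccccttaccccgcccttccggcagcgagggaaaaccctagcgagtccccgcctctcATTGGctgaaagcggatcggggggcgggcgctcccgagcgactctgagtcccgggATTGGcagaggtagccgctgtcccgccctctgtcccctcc
Idi1: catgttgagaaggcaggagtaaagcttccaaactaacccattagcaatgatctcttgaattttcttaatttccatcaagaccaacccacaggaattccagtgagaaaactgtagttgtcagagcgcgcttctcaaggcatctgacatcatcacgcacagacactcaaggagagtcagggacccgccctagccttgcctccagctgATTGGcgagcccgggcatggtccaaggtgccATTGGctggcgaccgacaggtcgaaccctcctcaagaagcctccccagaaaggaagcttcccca
Cyp51: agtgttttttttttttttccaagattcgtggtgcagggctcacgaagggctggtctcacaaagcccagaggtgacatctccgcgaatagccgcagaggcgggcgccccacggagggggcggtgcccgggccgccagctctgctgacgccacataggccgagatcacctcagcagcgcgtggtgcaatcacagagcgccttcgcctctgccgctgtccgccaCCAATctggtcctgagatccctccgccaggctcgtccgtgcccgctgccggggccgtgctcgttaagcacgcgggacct
Tm7sf2: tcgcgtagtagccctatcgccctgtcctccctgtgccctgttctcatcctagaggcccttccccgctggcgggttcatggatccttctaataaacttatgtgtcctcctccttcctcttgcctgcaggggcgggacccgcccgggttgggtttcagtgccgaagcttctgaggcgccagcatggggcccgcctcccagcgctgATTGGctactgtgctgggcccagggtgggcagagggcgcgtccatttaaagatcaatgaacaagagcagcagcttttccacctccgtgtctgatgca
In Hmgcs1 the sterol element began 137 bases before the start and the CCAAT letters began 237, 176 and 45 bases before it and 10 bases after it. Idi1 had CCAAT at 45 and 14 bases before the start, Cyp51 at 29 and Tm7sf2 at 47.

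Srebf2 also hosts miR-33, a miRNA that DICER1 cuts from its precursor, and its strands are shown because they tie a member's locus to the enzyme tested. The mature strands lie inside Srebf2 at chr15:82198127-82198147 and chr15:82198167-82198188 on the plus strand (RefSeq, GRCm38.p6), and their seeds, bases 2 to 8, are in capitals.
mmu-miR-33-5p: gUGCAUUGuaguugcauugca
mmu-miR-33-3p: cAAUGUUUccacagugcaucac
The 5p strand is known to act on Abca1, which exports sterol from the cell. The arrays report mRNA probes, and the levels of these miRNAs were not analysed here.

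With wild-type DICER1, members of the pathway stood on both sides of GFP. Genes from each arm stood lower than with GFP, among them Hmgcs1, Idi1, Cyp51, Scd2, Insig1 and Stard4, while Tm7sf2 and Scd1 stood higher. The probes of Srebf2 disagreed in direction. Fdps, Fdft1, Lss, Msmo1 and Fasn passed no test, and Sqle passed only under alternative settings, given below. The changes were small, the largest being that of Insig1 at 1.67-fold. In limma with the group as the only factor, 1 of 28 members was called at an adjusted p under 0.05 (3.57%), against 2.95% of all genes tested, and 8 of 28 were under 0.05 before adjustment, against 15.4% of all genes. The arrays of 1 replicate number varied together in every group, so the fit with the replicate number as a block is printed beside it. With the block 9 of 28 were called (32.1%), against 17.8% of all genes. Of these 9, 7 were lower, against 8.61% of all genes, and 2 were higher, against 9.18%. The 7 include Srebf2, which had a second probe that changed the other way, and without it 8 of 27 were called (29.6%), 6 lower and 2 higher, a count added after seeing the data. With the slide as a block 4 of 28 were called, against 8.73% of all genes. The median log2 change of the members was −0.03, against 0.04 for all genes, and 12 members were lower in all 3 pairs of the same replicate number (42.9%, or 11 of 27 without Srebf2), against 24% of all genes, while 8 were higher in all 3 (28.6%), against 29.8%.

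**Figure D1:**
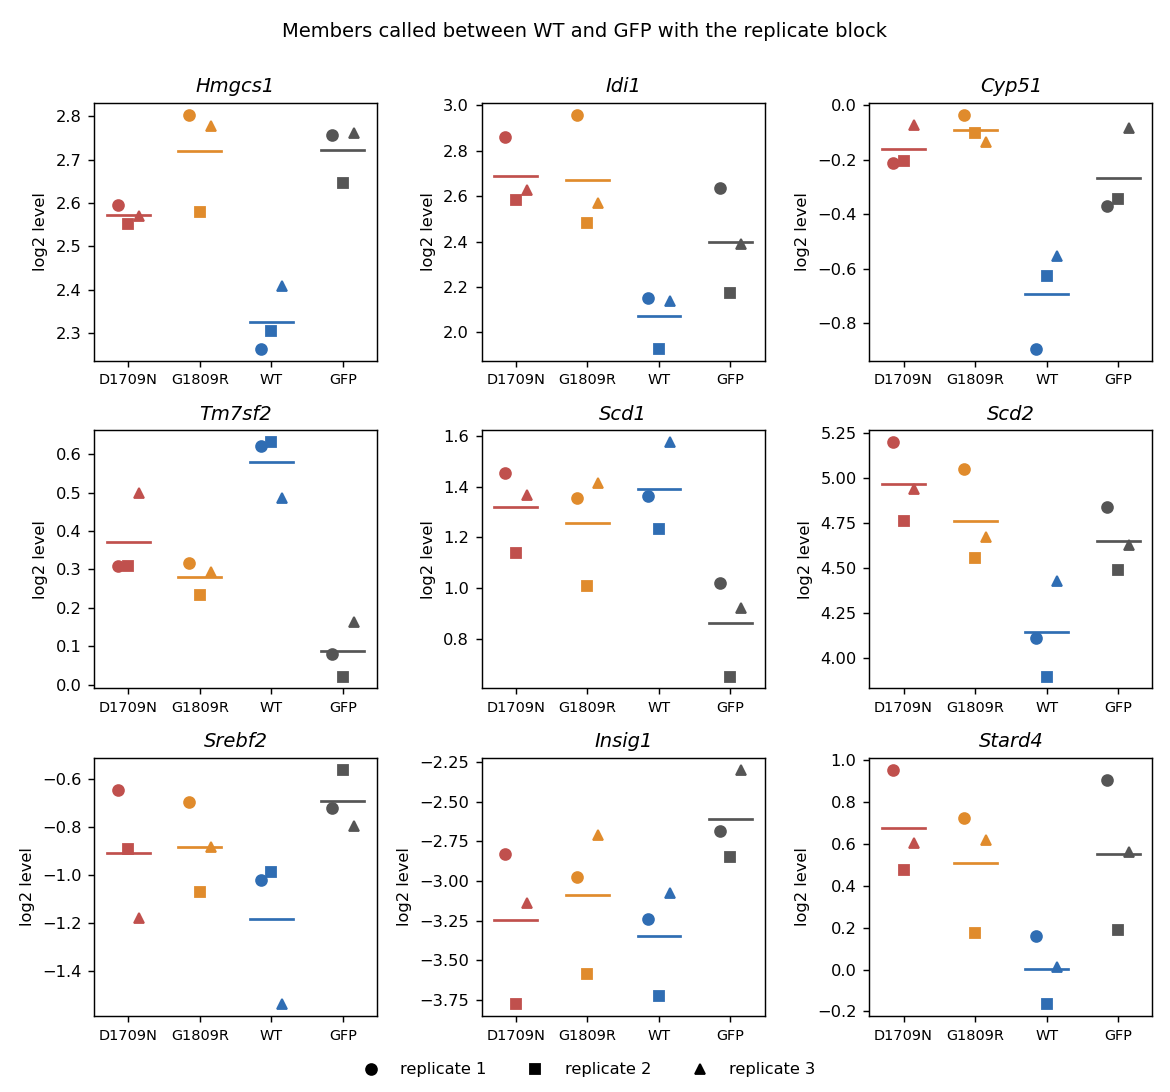
Log2 level relative to the array's 75th percentile for the 9 members called between WT and GFP with the replicate number as a block, in D1709N, G1809R, WT and GFP cells; each point is 1 array, its shape the replicate number, and the line is the mean of 3. The WT points lie below all 3 GFP points for Hmgcs1, Idi1, Cyp51, Scd2, Srebf2 (1 of its 2 probes), Insig1 and Stard4, and above them for Tm7sf2 and Scd1.

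Hmgcs1 makes HMG-CoA, the substrate from which mevalonate is formed. Its level was 2.26, 2.31 and 2.41 in WT cells, against 2.76, 2.65 and 2.76 in GFP cells. All WT arrays lay below all GFP arrays and also below every mutant array. This is a log2 change of −0.40 ± 0.10 SE (limma adjusted p = 0.068), and 0.00924 with the replicate block. The blocked call held when any 1 of the 12 arrays was left out, with an adjusted p of at most 0.0433.

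Idi1 interconverts the isoprene units that are joined into farnesyl pyrophosphate. Its level was 2.15, 1.93 and 2.14 in WT cells, against 2.64, 2.17 and 2.39 in GFP cells. The groups did not overlap, and replicate 2 was the lowest array of both. By limma the log2 change was −0.33 ± 0.17 SE (limma adjusted p = 0.409, 0.0346 with the block). With the block, the call was lost without D1709N array 3 (0.0562), or G1809R array 2 (0.0511), or GFP array 1 (0.124), 2 (0.0575) or 3 (0.123), or WT array 1 (0.122) or 2 (0.0775). It was also lost with quantile scaling, with normexp background correction, with the value table and with dim probes kept in.

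The other 5 genes of the mevalonate arm passed neither fit between WT and GFP. Their log2 changes ran between −0.16 for Mvk, the mevalonate kinase, and 0.34 for Acat2, the cytosolic thiolase that joins acetyl-CoA units. Acat2 was at −1.35, −1.74 and −2.40 in WT cells, against −2.05, −2.19 and −2.28 in GFP cells. Its groups overlapped, and WT replicate 1 was its highest array (limma adjusted p = 0.65, 0.274 with the block). Without WT replicate 3 the blocked fit called Acat2 higher (adjusted p = 0.0411).

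In the sterol arm, Cyp51 and Tm7sf2 act on neighbouring steps after lanosterol and stood on opposite sides of GFP. Cyp51 removes a methyl group from lanosterol, and its level was −0.90, −0.63 and −0.55 in WT cells, against −0.37, −0.34 and −0.08 in GFP cells. All WT arrays lay below all GFP arrays, with WT replicate 1 the lowest. Its log2 change was −0.43 ± 0.12 SE (limma adjusted p = 0.111, 0.0199 with the block). That call with the block was lost without GFP array 1 (0.0591) or 3 (0.0963), or WT array 1 (0.0725). It was also lost with dim probes kept in and with only the 2 groups compared.

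Tm7sf2 reduces the sterol that Cyp51 releases. Its level was 0.62, 0.63 and 0.49 in WT cells, against 0.08, 0.02 and 0.16 in GFP cells. Every WT array lay above every GFP array. Tm7sf2 was the only member called between WT and GFP without a block, with a log2 change of 0.49 ± 0.10 SE, or 1.41-fold (limma adjusted p = 0.0331, 0.00608 with the block). It was 0.54 on slide 1 and 0.47 on slide 2, with an adjusted p of 0.0142 with the slide as a block, and a second probe of the gene changed by 0.64. The call without a block was lost without D1709N array 1 (0.051) or 2 (0.0527), G1809R array 3 (0.0535), any GFP array (0.113, 0.095 or 0.0939), or WT array 1 (0.101) or 2 (0.118), and with the mean of the gene's probes (0.0521). The blocked call held in all 12 such fits, at an adjusted p of at most 0.0295.

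The other 9 genes of the sterol arm passed neither fit, at log2 changes between −0.15 for Sc5d and 0.23 for Sqle, the epoxidase that opens the sterol arm. Sqle was at 3.31, 2.90 and 3.65 in WT cells, against 3.25, 2.59 and 3.32 in GFP cells. The groups overlapped, and replicate 2 was the lowest array of both (limma adjusted p = 0.877, 0.0932 with the block). Under other settings of the blocked fit Sqle was called higher: with quantile scaling (adjusted p = 0.0258), the value table (0.0235) and without WT replicate 1 (0.0446).

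The stearoyl-CoA desaturases Scd1 and Scd2, which put the double bond into oleate, stood on opposite sides of GFP. Scd1 was at 1.36, 1.23 and 1.57 in WT cells, against 1.02, 0.65 and 0.92 in GFP cells. Each WT array lay above each GFP array, at a log2 change of 0.52 ± 0.16 SE (limma adjusted p = 0.122, 0.00409 with the block). The blocked call held in all 12 fits that left out 1 array. Scd2 was at 4.11, 3.90 and 4.43 in WT cells, against 4.84, 4.49 and 4.63 in GFP cells. Each WT array lay below each GFP array, at −0.51 ± 0.19 SE (limma adjusted p = 0.219, 0.0245 with the block). Its blocked call was lost without GFP array 1 (0.0853), 2 (0.0812) or 3 (0.0648), or WT array 1 (0.0763) or 2 (0.0801). The Scd2 call was also lost with dim probes kept in and with only the 2 groups compared.

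Fasn, the synthase that builds palmitate, was at −0.38, −0.81 and −0.79 in WT cells, against −0.57, −1.17 and −0.86 in GFP cells. The groups overlapped (log2 change 0.21 ± 0.25 SE, limma adjusted p = 0.864, 0.188 with the block). Acly, Acaca, the acetyl-CoA carboxylase that commits carbon to fatty acids, and the elongase Elovl6 passed neither fit, at −0.20, 0.14 and −0.25.

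Among the regulators, Insig1, Stard4 and 1 of the 2 probes of Srebf2 were lower in WT cells in all 3 pairs. Insig1, which retains SREBP in the endoplasmic reticulum, was at −3.24, −3.72 and −3.08 in WT cells, against −2.68, −2.85 and −2.30 in GFP cells. The groups did not overlap, and replicate 2 was the lowest of both. The difference came to a log2 change of −0.74 ± 0.30 SE (limma adjusted p = 0.27, 0.00982 with the block). Its blocked call held in all 12 fits that left out 1 array.

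Stard4, which carries sterol between membranes, was at 0.16, −0.17 and 0.01 in WT cells, against 0.91, 0.19 and 0.56 in GFP cells. All WT arrays lay below all GFP arrays, most narrowly WT replicate 1 below GFP replicate 2. The log2 change was −0.55 ± 0.22 SE (limma adjusted p = 0.251, 0.00599 with the block, at most 0.031 with any 1 array left out). A second probe of Stard4 changed by −0.27.

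Srebf2, which encodes the SREBP that favours sterol genes, was at −1.02, −0.99 and −1.54 in WT cells, against −0.72, −0.56 and −0.79 in GFP cells. The groups did not overlap, and WT replicate 3 was the lowest array. This is a log2 change of −0.49 ± 0.19 SE (limma adjusted p = 0.235, 0.0465 with the block). A second probe of Srebf2, well above background on all 12 arrays, changed by 0.39 in the opposite direction, and the mean of both probes by −0.05 (blocked adjusted p = 0.856), so the direction of the gene is uncertain. The blocked call was lost without D1709N array 1 (0.0561), 2 (0.068) or 3 (0.0633), or G1809R array 1 (0.0671), or GFP array 2 (0.146) or 3 (0.163), or WT array 1 (0.102) or 3 (0.143). Srebf1, which encodes the SREBP that favours fatty acid genes, was at −2.15, −2.75 and −2.54 in WT cells, against −2.40, −2.89 and −2.93 in GFP cells. Its groups overlapped, and replicate 1 was the highest array of both (log2 change 0.26 ± 0.26 SE, limma adjusted p = 0.801, 0.0538 with the block). With probes well above background in every group, the blocked fit called Srebf1 higher (adjusted p = 0.0425).

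Interferon-stimulated genes were measured beside the synthesis genes, by a list chosen because an earlier look at these data showed them to vary. For 13 tested of a list of 14, the median log2 change against GFP was 1.82 for D1709N, 2.14 for G1809R and 3.15 for WT. Without the block 0 of 13 were called in D1709N, 0 in G1809R and 3 in WT, against 0.0496%, 0.0124% and 2.95% of all genes. Before adjustment 5, 10 and 12 were under 0.05, against 7.21%, 6.64% and 15.4% of all genes. With the block 5, 10 and 12 were called, all higher, against 4.25%, 3.74% and 17.8% of all genes. The mean deviation of these 13 from their average was 1.98, 1.98 and −0.03 in WT arrays, against −2.42, −0.39 and −2.24 in GFP arrays. Replicate 2 was the highest GFP array for these genes and the lowest GFP array for Idi1, Sqle, Scd1, Scd2, Insig1 and Stard4, among other members. Some members went the other way: replicate 2 was the highest GFP array for Srebf2, Mvd, Lss and Dhcr7. The part of the interferon-stimulated genes in the changes of the synthesis genes was not tested.

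With D1709N, 0 of 28 members were called against GFP without the block, against 0.0496% of all genes, and 2 were under 0.05 before adjustment, against 7.21% of all genes. With the replicate block 3 were called (10.7%), against 4.25% of all genes: Scd1 and Srebf1 were higher and Insig1 was lower. The median log2 change was 0.10, against 0.03 for all genes. The GFP arrays are the same as in the comparison of WT with GFP.

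Scd1 was at 1.45, 1.14 and 1.37 in D1709N cells, all above the 3 GFP arrays. By limma the log2 change was 0.45 ± 0.16 SE (limma adjusted p = 0.532, 0.0273 with the block). With the block, the call was lost without D1709N array 1 (0.0928), 2 (0.107) or 3 (0.0798), or GFP array 1 (0.0602), 2 (0.099) or 3 (0.118). Srebf1 was at −1.93, −2.52 and −2.50 in D1709N cells, higher than GFP in every pair though the groups overlapped. Its log2 change was 0.42 ± 0.26 SE (limma adjusted p = 0.816, 0.0281 with the block). That call was lost without D1709N array 1 (0.09), 2 (0.109) or 3 (0.0975), or GFP array 1 (0.0915), 2 (0.0687) or 3 (0.119), and with quantile scaling (0.0618).

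Insig1 was at −2.83, −3.78 and −3.14 in D1709N cells. Replicate 1 lay among the GFP arrays and replicate 2 far below them. The difference came to a log2 change of −0.64 ± 0.30 SE (limma adjusted p = 0.725, 0.0473 with the block), at −0.15 on slide 1 and −0.88 on slide 2. That call with the block was lost without D1709N array 2 (0.166) or 3 (0.179), or G1809R array 1 (0.0721), 2 (0.0687) or 3 (0.0651), or GFP array 2 (0.17) or 3 (0.166), or WT array 1 (0.0537), 2 (0.0688) or 3 (0.0603), and with quantile scaling (0.12). Hmgcs1 was at 2.60, 2.55 and 2.57, all below the GFP arrays, and did not pass (−0.15, limma adjusted p = 0.851, 0.285 with the block).

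With G1809R, 0 of 28 members were called against GFP without the block, against 0.0124% of all genes, and 1 was under 0.05 before adjustment, against 6.64% of all genes. With the block 2 were called (7.14%), against 3.74% of all genes: Scd1 and Srebf1, both higher. The median log2 change was 0.09, against 0.05 for all genes, and these GFP arrays are shared with the other comparisons.

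Scd1 was at 1.35, 1.01 and 1.41 in G1809R cells. Replicates 1 and 3 lay above all GFP arrays and replicate 2 just below GFP replicate 1. The log2 change was 0.39 ± 0.16 SE (limma adjusted p = 0.694, 0.0424 with the block). The blocked call was lost without D1709N array 1 (0.061), 2 (0.0736) or 3 (0.0677), or G1809R array 1 (0.132), 2 (0.108) or 3 (0.141), or GFP array 1 (0.0862), 2 (0.14) or 3 (0.159), or WT array 2 (0.0581).

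Srebf1 was at −1.76, −2.45 and −2.38 in G1809R cells. Each array lay above the GFP array of its number, with replicate 1 the highest, and the groups overlapped. This is a log2 change of 0.54 ± 0.26 SE (limma adjusted p = 0.799, 0.0149 with the block), and the blocked call was lost without G1809R array 1 (0.0667), 2 (0.0698) or 3 (0.0571), or GFP array 1 (0.0557), 2 (0.0533) or 3 (0.0712). Hsd17b7, a sterol reductase, was at 1.42, 1.04 and 1.55 in G1809R cells, against 1.02, 0.84 and 1.15 in GFP cells. It did not pass (0.34 ± 0.19 SE, limma adjusted p = 0.895, 0.158 with the block). Insig1 was at −2.98, −3.58 and −2.71 in G1809R cells, and its change of −0.48 did not pass either (0.961 by limma, 0.107 with the block).

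**Figure D2:**
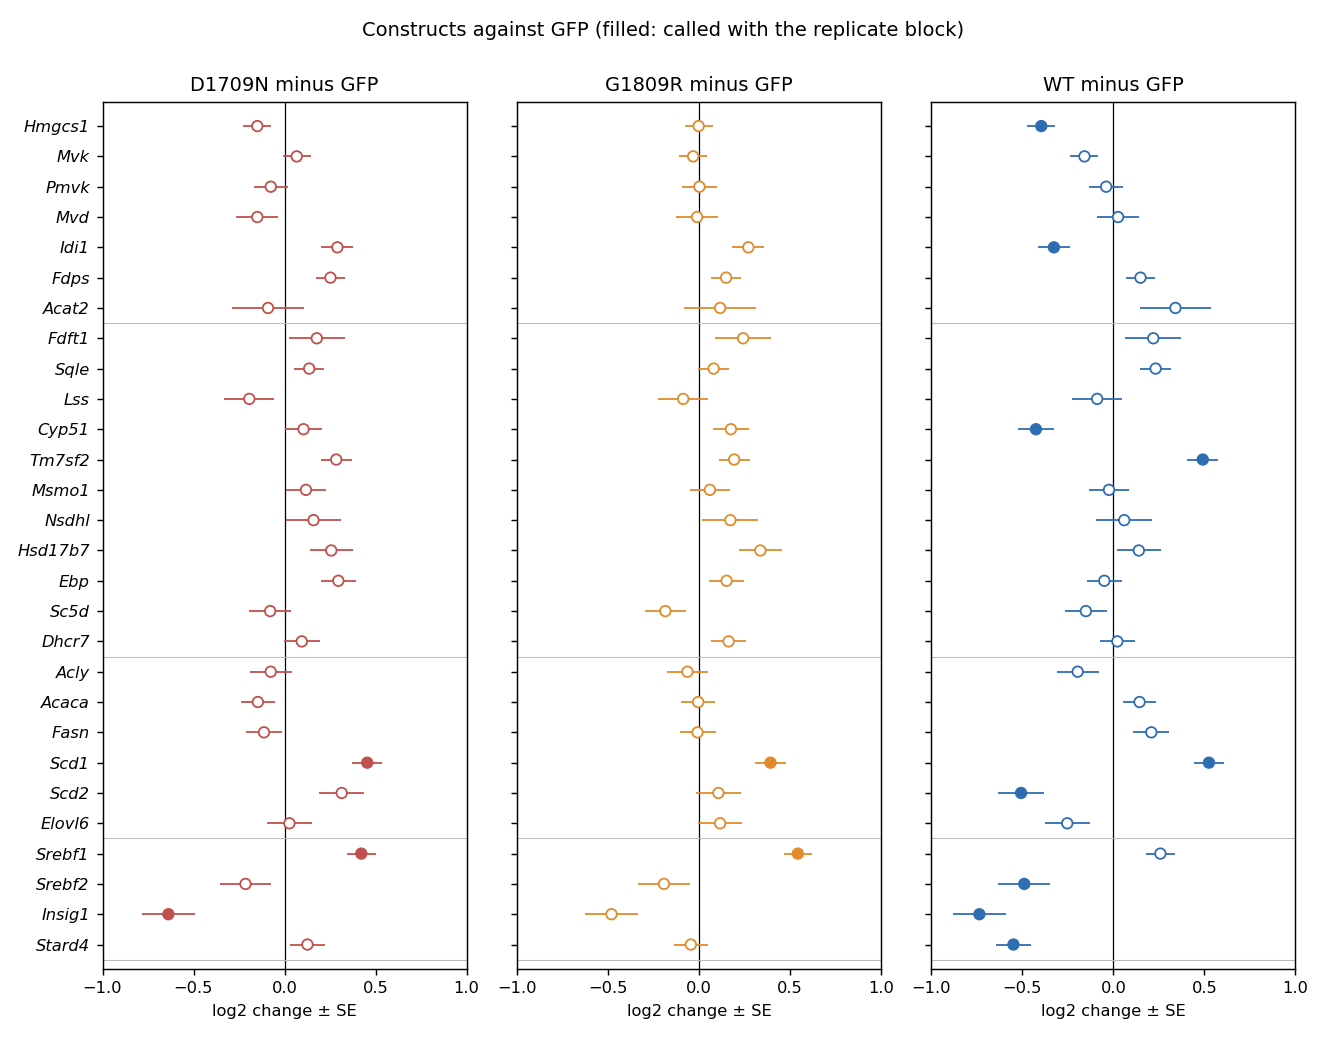
Log2 change of each of the 28 members in D1709N, G1809R and WT cells against GFP cells, by arm of the pathway; points are the limma estimates, bars are ± 1 SE of the fit with the replicate number as a block, and filled points were called in that fit. The 9 filled points of WT lie on both sides of 0, and Scd1 is filled in all 3 panels.

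Set directly against the wild type, the mutants stood higher for some members, with the replicate block: Idi1, Cyp51, Scd2 and Stard4 were called in both, Ebp in D1709N, and Hmgcs1 and Srebf1 in G1809R. Whether Ebp, Hmgcs1 or Srebf1 differed between the mutants was tested in their direct comparison, where none passed. Both comparisons use the same 3 WT arrays. For D1709N, 0 of 28 members were called without the block, against 1.66% of all genes, and 5 were under 0.05 before adjustment, against 13.7% of all genes. With the block 5 were called (17.9%), against 15.5% of all genes. All 5 were higher, against 7.12% of all genes called higher. Lower calls appeared under other settings of the blocked fit: Acaca with quantile scaling, the value table or the mean of a gene's probes (adjusted p 0.0343, 0.0309 and 0.00933) and without G1809R replicate 1 (0.0442), Fasn with probes well above background in every group (0.045), and Acat2 (0.0277) and Fasn (0.0436) without WT replicate 3. With the slide as a block 4 were called, against 5.82% of all genes. The median log2 change was 0.10, against −0.01 for all genes.

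Scd2 had the largest change of a member. It was at 5.20, 4.76 and 4.94 in D1709N cells, all above the WT arrays of 4.11, 3.90 and 4.43. By limma the log2 change was 0.82 ± 0.19 SE, or 1.77-fold (limma adjusted p = 0.0679, 0.00462 with the block), at 1.09 on slide 1 and 0.69 on slide 2. Stard4 was at 0.95, 0.48 and 0.60 in D1709N cells, all above the WT arrays, at 0.68 ± 0.22 SE (0.183 by limma, 0.00354 with the block). A second probe of Stard4 changed by 0.10.

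Idi1 was at 2.86, 2.58 and 2.63 in D1709N cells, all above the WT arrays, at 0.62 ± 0.17 SE (0.109 by limma, 0.00368 with the block). Cyp51 was at −0.21, −0.20 and −0.07, all above the WT arrays, at 0.53 ± 0.12 SE (0.0706 by limma, 0.0104 with the block). The blocked calls of Scd2, Stard4, Idi1 and Cyp51 held in all 12 fits that left out 1 array.

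Ebp, a sterol isomerase, was at 3.34, 3.28 and 3.64 in D1709N cells, against 3.14, 2.80 and 3.28 in WT cells. D1709N replicate 2 matched the highest WT array, replicate 3, to within 0.01 and the groups did not overlap. Its log2 change was 0.35 ± 0.18 SE (0.449 by limma, 0.0426 with the block). With the block, the call was lost without D1709N array 1 (0.0691), 2 (0.151) or 3 (0.133), or G1809R array 3 (0.0611), or GFP array 1 (0.0506) or 3 (0.0688), or WT array 1 (0.0638), 2 (0.141) or 3 (0.0834), and with quantile scaling (0.0823).

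The other 23 members passed neither fit in D1709N against WT. They ran between −0.43 for Acat2, at −1.98, −2.29 and −2.52 in D1709N cells with groups that overlapped, and 0.28 for Elovl6. Acaca was at 3.27, 3.14 and 3.03 in D1709N cells, against 3.49, 3.42 and 3.41 in WT cells. Its groups did not overlap, and it was lower in every pair (−0.29 ± 0.14 SE, limma adjusted p = 0.396, 0.0671 with the block), with 2 further probes at −0.60 and −0.54. Fasn was at −0.63, −1.31 and −1.01 in D1709N cells and lower than WT in every pair, without passing (−0.32 ± 0.25 SE, limma adjusted p = 0.691, 0.0609 with the block). Srebf2 was at −0.65, −0.89 and −1.18 in D1709N cells, with its probes at 0.28 and −0.45.

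For G1809R against WT, 1 of 28 members was called without the block (3.57%), against 1.64% of all genes, and 6 were under 0.05 before adjustment, against 12.2% of all genes. The called member was Cyp51. With the block 6 were called (21.4%), against 12.7% of all genes, and all 6 were higher, against 6.36% of all genes called higher. Without WT replicate 3 the fit with the replicate block also called Elovl6 higher (adjusted p = 0.0389). With the slide as a block 3 were called, against 4.99% of all genes. The median log2 change was 0.12, against 0.01 for all genes.

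Cyp51 was at −0.03, −0.10 and −0.14 in G1809R cells, against −0.90, −0.63 and −0.55 in WT cells. All G1809R arrays lay above all WT arrays. The difference came to a log2 change of 0.60 ± 0.12 SE, or 1.52-fold (limma adjusted p = 0.0478, 0.00688 with the block, 0.0163 with the slide as a block). On slide 1, which holds WT replicate 1, it was 0.86, and it was 0.47 on slide 2. The call without a block was lost in each of the 12 fits that left out 1 array, at an adjusted p between 0.0554 without GFP replicate 3 and 0.147 without WT replicate 1. The blocked call held in all 12, at an adjusted p of at most 0.0334.

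Idi1 was at 2.96, 2.48 and 2.57 in G1809R cells, all above the WT arrays, at 0.60 ± 0.17 SE (0.13 by limma, 0.00434 with the block). Stard4 was at 0.73, 0.18 and 0.62, all above the WT arrays, at 0.50 ± 0.22 SE (0.382 by limma, 0.0115 with the block). Both blocked calls held in all 12 fits that left out 1 array, Stard4 at an adjusted p of at most 0.0491. A second probe of Stard4 changed by 0.22, and the mean of its probes by 0.36 (blocked adjusted p = 0.0497).

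Scd2 was at 5.05, 4.56 and 4.67 in G1809R cells, all above the WT arrays, at 0.61 ± 0.19 SE (0.179 by limma, 0.015 with the block), and was lost with the block without G1809R array 1 (0.0686) or 2 (0.0592), or WT array 2 (0.0551). The Scd2 call was also lost with dim probes kept in. Hmgcs1 was at 2.80, 2.58 and 2.78, all above the WT arrays, at 0.39 ± 0.10 SE (0.0961 by limma, 0.0125 with the block), and was lost with the block without G1809R array 1 (0.057). Srebf1 overlapped with WT and stood higher in every pair, at 0.29 ± 0.26 SE (0.832 by limma, 0.0473 with the block). Its blocked call was lost without D1709N array 1 (0.0671), 2 (0.0761) or 3 (0.0787), or G1809R array 1 (0.164), 2 (0.1) or 3 (0.0985), or GFP array 1 (0.0667), 2 (0.0576) or 3 (0.0758), or WT array 1 (0.148) or 2 (0.138).

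Tm7sf2 was at 0.32, 0.23 and 0.29 in G1809R cells and at 0.31, 0.31 and 0.50 in D1709N cells, all above the GFP arrays and, apart from D1709N replicate 3, all below the WT arrays. Against WT it was at −0.30 ± 0.10 SE in G1809R (0.227 by limma, 0.0554 with the block) and −0.21 ± 0.10 SE in D1709N (0.415 by limma, 0.138 with the block), which did not pass. The G1809R difference passed with the block under quantile scaling (0.0407), the value table (0.0375), probes well above background in every group (0.0403) and without WT replicate 3 (0.0298). Scd1 did not pass against WT in either mutant, at −0.07 in D1709N and −0.13 in G1809R. Interferon-stimulated genes had a median log2 change of −1.39 in D1709N and −0.84 in G1809R against WT, and their part in these differences was not tested.

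**Figure D3:**
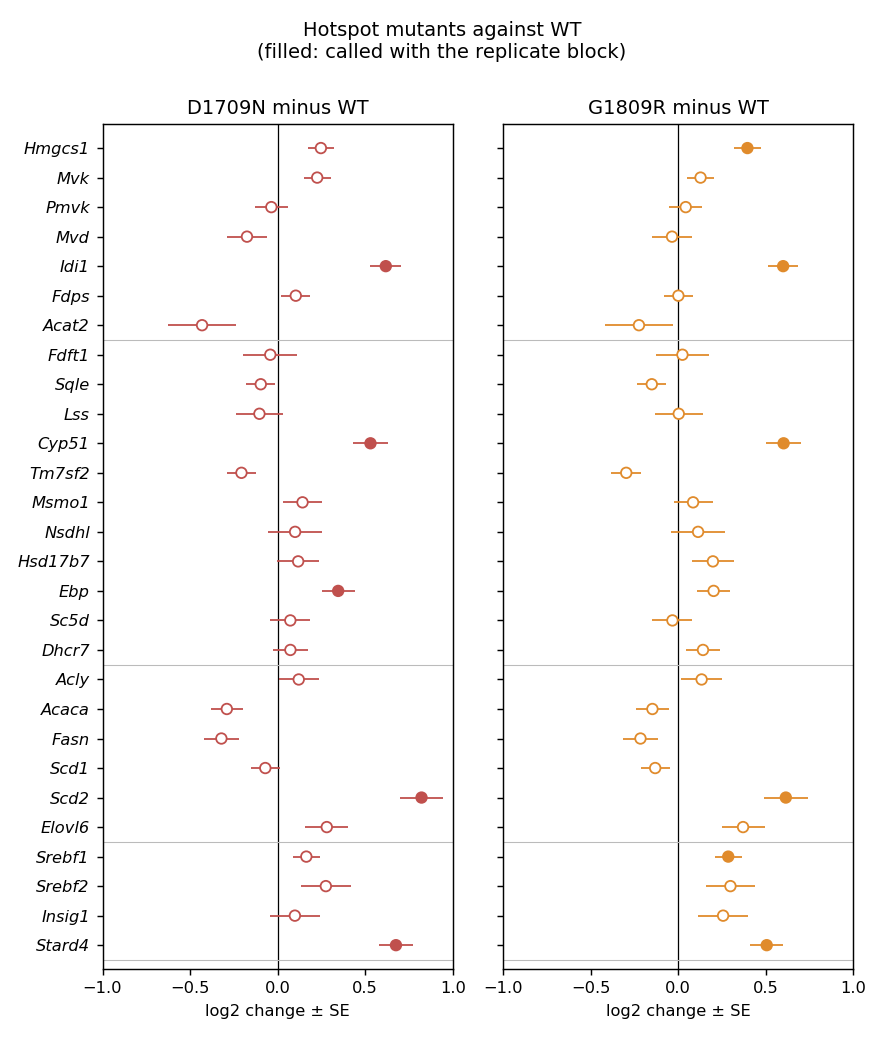
Log2 change of each of the 28 members in D1709N and G1809R cells against WT cells, by arm of the pathway; points are the limma estimates, bars are ± 1 SE of the fit with the replicate number as a block, and filled points were called in that fit. All 5 filled points of D1709N and all 6 of G1809R lie above 0.

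Between the mutants, 0 of 28 members were called for G1809R against D1709N with limma, with or without the block, as were 0% of all genes, and 0 members were under 0.05 before adjustment. The largest differences were −0.21 ± 0.19 SE for Scd2 and 0.21 ± 0.25 SE for Acat2. Acat2 was at −1.97, −2.31 and −1.89 in G1809R cells, against −1.98, −2.29 and −2.52 in D1709N cells, and the difference lay in replicate 3. Stard4 differed by −0.17 and Insig1 by 0.16. The median was 0.04, against 0.01 for all genes. A p that misses the threshold does not show that the mutants act alike.

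The members differed in what their spread went with. In a split of the sum of squares over the 12 arrays, the group took 88.0% for Tm7sf2, 86.1% for Hmgcs1 and 83.1% for Cyp51. The replicate number took 89.9% for Sqle, 81.0% for Fdps, which makes farnesyl pyrophosphate, and 76.1% for Fasn. These 6 are the highest of either kind and were chosen after their values were seen. The median share over the members was 29.5% for the group and 38.9% for the replicate number, against 24.8% and 48.9% over all genes tested. The replicate number took more than the group for 17 of 28 members (60.7%), against 63.7% of all genes.

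Sqle was at 3.39, 2.73 and 3.46 in D1709N cells, 3.31, 2.75 and 3.35 in G1809R cells, 3.31, 2.90 and 3.65 in WT cells and 3.25, 2.59 and 3.32 in GFP cells. Replicate 2 was the lowest array of each group. Fdps was at 4.03, 3.46 and 3.86 in D1709N cells, 3.81, 3.37 and 3.87 in G1809R cells, 3.93, 3.36 and 3.76 in WT cells and 3.61, 3.28 and 3.71 in GFP cells, again with replicate 2 the lowest in each. Insig1, Scd1, Scd2, Idi1, Stard4 and Fasn had replicate 2 as the lowest array of every group as well. Other members went otherwise. Msmo1, for which the replicate number took 73.7%, had replicate 1 as the lowest array of every group. Elovl6 (70.3%) averaged 0.67, 0.11 and 0.09 in replicates 1, 2 and 3, lowest in replicate 3. The share of all genes with each pattern is not given here. The mean deviation of the interferon-stimulated genes in replicates 1, 2 and 3 was −0.65, 1.02 and −0.56 in D1709N and −0.08, 1.57 and −0.17 in G1809R, highest in replicate 2. In GFP cells it was −2.42, −0.39 and −2.24, again highest in replicate 2. In WT cells it was 1.98, 1.98 and −0.03, and replicate 2 did not stand above replicate 1. The part of the interferon-stimulated genes in the replicate pattern was not tested.

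**Figure D4:**
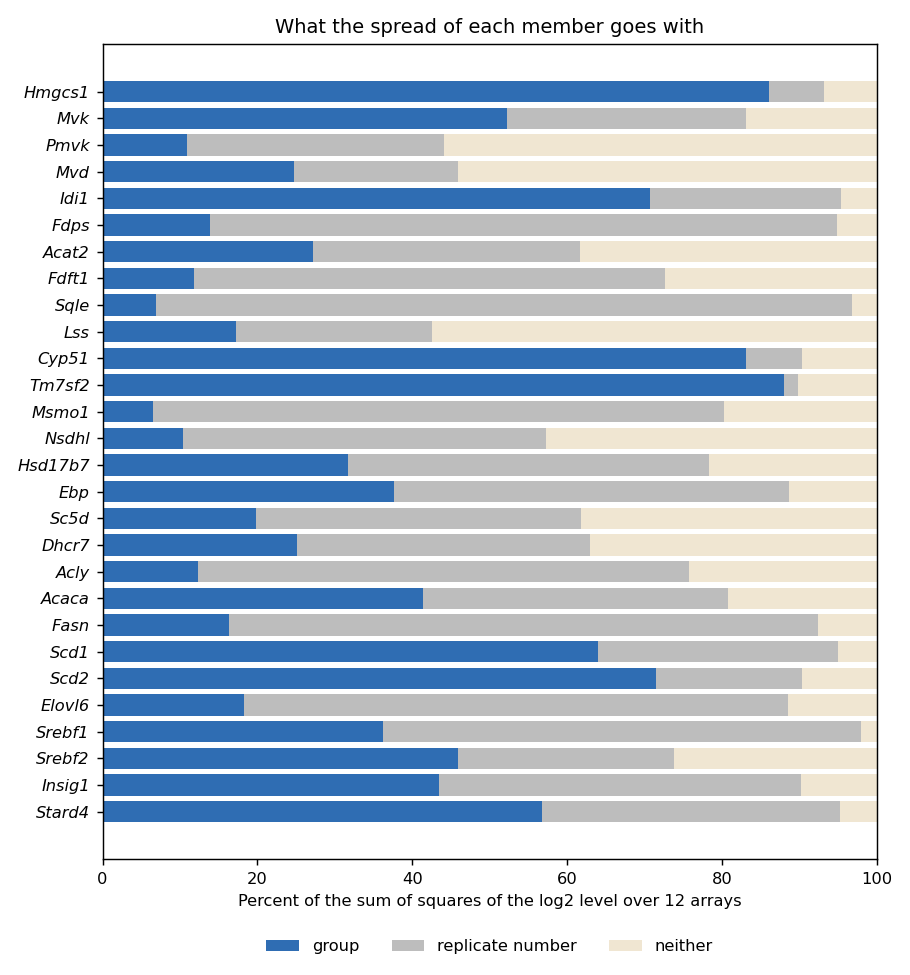
Percent of the sum of squares of each member's log2 level over the 12 arrays that goes with the group, with the replicate number or with neither. Tm7sf2, Hmgcs1 and Cyp51 are mostly group, at 83.1% to 88.0%, and Sqle, Fdps and Fasn mostly replicate number, at 76.1% to 89.9%.

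Related genes outside the 28 were taken from further lists. In the list of other sterol and isoprenoid enzymes, all 8 of which were tested, Acat1 was called higher in both mutants against WT without the block. Acat1 is the mitochondrial thiolase of ketone and isoleucine metabolism. It was at 2.15, 2.16 and 1.65 in D1709N cells, 2.22, 2.24 and 1.69 in G1809R cells, 1.03, 1.00 and 1.06 in WT cells and 1.54, 1.49 and 1.37 in GFP cells. The mutants lay above GFP and WT below it, with no overlap. The log2 change was 0.96 ± 0.18 SE in D1709N against WT (limma adjusted p = 0.0328, 0.00298 with the block) and 1.02 ± 0.18 SE in G1809R against WT (0.0247, 0.00243 with the block). When 1 array was left out, the call without the block held in 4 of 12 fits for D1709N and 7 of 12 for G1809R (adjusted p up to 0.143 and 0.101), and the blocked calls held in all 12. The D1709N call was lost without D1709N replicate 1 or 2 or any GFP or WT array, and the G1809R call without G1809R replicate 1 or 2 or any WT array.

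In the list of other fatty acid genes, 23 of 24 were tested. Slc25a1, the carrier that exports citrate from mitochondria for Acly, was called higher in WT cells. It averaged 1.60 ± 0.07 in WT cells, against 0.99 ± 0.09 in GFP cells (SD, n = 3), with no overlap, at 0.61 ± 0.11 SE (limma adjusted p = 0.0181, 0.00368 with the block). It was at 1.15, 0.93 and 1.14 in D1709N cells and 1.16, 1.02 and 1.07 in G1809R cells, all below the WT arrays. This is a log2 change of −0.53 in D1709N against WT (limma adjusted p = 0.0409, 0.00862 with the block) and −0.52 in G1809R against WT (0.0452, 0.00984 with the block). When 1 array was left out, the calls against WT without the block held in 0 of 12 fits (adjusted p up to 0.165 in D1709N and 0.148 in G1809R) and that against GFP in 8 of 12 (up to 0.0859, lost without WT replicate 2 or 3 or GFP replicate 1 or 3), while the blocked calls held in all 12. Without a block, 1 of the 23 was called between WT and GFP, against 2.95% of all genes, and 5 with it, 3 higher and 2 lower, against 17.8%. Against WT the blocked fit called 5 in D1709N, 2 higher and 3 lower, against 15.5% of all genes, and 2 in G1809R, both lower, against 12.7%.

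For the remaining lists, the shares of all genes to read the counts of WT against GFP against are 15.4% under 0.05 before adjustment and 17.8% called with the block. Of 13 genes that sense sterols or process SREBP, 0 were called without the block, with 3 under 0.05 before adjustment, and 3 with the block, all lower. Of 18 tested genes of sterol uptake, storage and efflux, 0 were called without the block, with 4 under 0.05 before adjustment, and 6 with it, 4 higher and 2 lower. Of 19 tested genes of fatty acid oxidation, 0 were called without the block, with 1 under 0.05 before adjustment, and 2 with it, both higher. Against WT, none of the 3 lists had a call without the block. With it, D1709N had 3 of 13 (2 higher and 1 lower), 6 of 18 (1 higher and 5 lower) and 3 of 19 (1 higher and 2 lower), against 15.5% of all genes, and G1809R had 1 of 13 (higher), 4 of 18 (1 higher and 3 lower) and 2 of 19 (both lower), against 12.7%.

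Abca1, the exporter on which miR-33-5p acts, passed neither fit in any comparison. It was at −0.66, 0.21 and 0.05 in D1709N cells, −0.38, 0.11 and 0.37 in G1809R cells, −0.75, 0.33 and 0.47 in WT cells and −0.09, −0.16 and −0.04 in GFP cells. The log2 change of WT against GFP was 0.11 ± 0.34 SE (limma adjusted p = 0.989, 0.765 with the block), smaller than its SE. Ch25h, which makes an oxysterol that keeps SREBP in the membrane, was at −0.03 in WT against GFP (0.999, 0.895 with the block).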

How the data were processed

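RNA of 12 samples, 4 groups of 3, was measured on 1-colour Agilent arrays. Agilent Feature Extraction 11.0.1.1 produced the deposited scanner files, per the submitters' processing notes, as background-subtracted spot intensities that were not scaled between arrays, per the file headers. A value table that the authors deposited gives log2 values for 31362 probes, 31334 of them matched to scanner probes. Its correlation with the log2 scanner intensity was 0.995 to 1.000 and its column medians were 9.40 to 9.42. How it was scaled is unknown, so it served as an alternative.

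From each log2 processed intensity the array's 75th percentile over 59305 non-control spots was subtracted, with spots flagged as outliers left out. Probes were kept if 1 group or more had them well above background on all its arrays, and the probe with the highest mean stood for its gene. Symbols came from RefSeq accessions, and Sc4mol is given as Msmo1. Genes were tested two-sided with limma 3.58.1 in R 4.3.3, with all 12 arrays and 4 groups in 1 fit, with Benjamini-Hochberg adjustment over 24183 genes within each of 6 comparisons. The step was tested on simulated data.

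All 18 pairs of same-numbered arrays, from different groups, deviated together from their group means (correlation 0.60 to 0.85), against −0.67 to 0.20 in 36 pairs with different numbers. The number, which the labels give, was therefore taken as pairing the samples, and the fit with it as a block is printed where it changes a call. Errors of levels are SDs or the arrays themselves, and errors of changes are SEs from the fit without the block. Sums of squares were split between group and replicate number.

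The members, the further lists and the tests were chosen with earlier results of these data known. Members were named with all values where called, where among the 4 largest changes of a comparison, or by name (Srebf1, Srebf2, Insig1, Scd1, Scd2 and Fasn). Outside the members, up to 4 called genes of each list were named, with Abca1 and Ch25h by name. Some genes of these lists are not reported here by name. Without the block, the calls among the members were Tm7sf2 for WT against GFP and Cyp51 for G1809R against WT, and every other member call came with a block or another setting. Alternatives were quantile scaling, normexp, the value table, other filters, the mean of a gene's probes, the slide as a block, slide 2 alone, only the groups compared, each array left out and, added after seeing the data, the counts without Srebf2. Promoter and miRNA sequences came from RefSeq tables of GRCm38.p6.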

Additional observations from a re-analysis of the deposited data

Results flagged for a closer look

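The mutants and the wild type differed by a direct test for 3 genes, chosen because their adjusted limma p was under 0.05 in that contrast without a block. Cyp51 was higher in G1809R than in WT by 0.60 on the log2 scale. Acat1 was higher than in WT by 0.96 in D1709N and by 1.02 in G1809R, and Slc25a1 stood at −0.53 in D1709N and −0.52 in G1809R against WT. Each of these had the same sign in 3 of 3 pairs. When 1 array was left out, these calls without a block held in 0 of 12 fits for Cyp51, in 4 of 12 for Acat1 in D1709N and 7 of 12 in G1809R, and in 0 of 12 for Slc25a1 in both mutants, and with the replicate block in all 12 for each. A formal outlier test was not run, since groups of 3 arrays are too small for it.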

How the results depend on the processing

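No value reported changed sign past a threshold under any alternative. Without a block, 1 member was called between WT and GFP, but 0 with dim probes kept in, with the mean of a gene's probes, on slide 2 alone and with only the 2 groups, 4 with the slide and 9 with the replicate number as a block. For G1809R against WT, also 1, it was 0 with quantile scaling, normexp, the value table, no filter, slide 2 alone or only 2 groups, 3 with the slide block and 6 with the replicate block. For D1709N against WT, 0, it was 1 with normexp or a filter in every group, 4 with the slide block and 5 with the replicate block. Against GFP the replicate block gave 3 for D1709N and 2 for G1809R, where the fit without it gave 0. With the replicate block, leaving out the dim-probe filter gave 5 for WT against GFP: Hmgcs1, Tm7sf2, Scd1, Insig1 and Stard4. It gave 0 for D1709N and G1809R against GFP. Against WT it left Cyp51, Idi1 and Stard4 in both mutants, with Scd2 in D1709N and Hmgcs1 in G1809R. Quantile scaling or the value table gave 1 for D1709N against GFP, and the value table also lost Ebp for D1709N against WT. Normexp lost Srebf1 for G1809R against WT. With only the 2 groups compared, the blocked count was 1 for WT against GFP, Insig1, and 0 in the other comparisons of a construct with GFP or WT. The calls of Hmgcs1, Tm7sf2, Scd1 and Stard4 between WT and GFP were lost there. That fit has fewer arrays.

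Leaving out 1 array gave 0 to 1 for WT against GFP and 0 for the others without a block; with it, 5 to 9 for WT against GFP, 0 to 2 for D1709N and for G1809R against GFP, 4 to 6 for D1709N against WT, 3 to 8 for G1809R against WT and 0 between the mutants. The median member change of WT against GFP was 0.0189 with quantile scaling, 0.0186 with the value table and −0.0852 to 0.0218 without 1 array. That of D1709N against GFP was 0.0361 on slide 2 alone and −0.0237 to 0.146 without 1 array, that of G1809R against GFP 0.004 to 0.195, and that of G1809R against D1709N −0.0644 to 0.142. Without the filter the median of all genes was 0.17 for WT against GFP. The causes were not tested.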
